A study of Mus musculus with 2 samples.

Results

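The 30 S phase genes described here encode proteins of DNA replication and of the passage from G1 into S phase. They were chosen by name from a list of S phase genes, with earlier results of these data known. Each of the 30 listed genes is among the 17829 rows of the filtered count matrix. The members are Mcm2, Mcm4, Mcm5, Mcm6, Mcm7, Cdc6 and Gmnn (helicase loading and origin licensing), Pcna, Pola1, Prim1, Gins2, Rfc2 and Fen1 (synthesis at the fork), Rrm1, Rrm2 and Tyms (deoxynucleotide supply), Clspn, Tipin, Ung, Exo1 and Blm (fork protection and repair), Uhrf1, Hells, Cdca7, Nasp, Slbp and Chaf1b (chromatin and histone supply), and Ccne2, E2f8 and Dtl (control of the cycle).

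The cells were live, EpCAM-sorted epithelial cells of the colon of C57BL/6 mice, profiled with the 10x Genomics 3' V2 method. One library was made from cells of genotype Mettl14 WT and 1 from cells of genotype Mettl14 KO, and the series text gives an age or time of 2 weeks without its starting point. How many animals each library pooled, which exons were removed and which Cre line, if any, removed them are not given in the sources used here. Mettl14 encodes a partner of the methyltransferase that places m6A on RNA. With a single library of each genotype no test was possible, so a difference is one between these libraries. Its 95% interval covers only the error of counting.

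In the colon, cells divide in the lower crypt and stop dividing as they move up and mature. A cell that commits to division releases E2F transcription factors from the retinoblastoma proteins, and E2F then turns on genes that load the replicative helicase, copy the DNA, supply nucleotides and package new DNA into chromatin. Transcripts of these genes peak in late G1 and S phase and are replaced by mitotic transcripts in G2 and M phase, and both sets are low in mature cells.

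The promoters of the members were read first, because E2F is the factor that the group is known for. A window from 250 bases before to 50 bases after the start was found for 23 of the 30 members in the RefSeq promoter table (build GRCm38.p6). The letters TTTCCCGC, TTTGGCGC, TTTCGCGC or TTTGCCGC, on either strand and with overlaps allowed, were present in 10 of these 23 promoters (43.5%), against 4.53% of the 10237 measured genes with a promoter and 2.60% of all 27025 in the table. In a shorter window, from 100 bases before to 50 after, the shares were 26.1% and 2.46%. Among other replication genes 19 of 50 promoters held such letters (38.0%), and among genes of G2 and M phase 1 of 29 (3.45%). The letters CCAAT, on either strand, were in 16 of the 23 member promoters (69.6%), against 43.1% of measured genes. For each of the 10, the match nearest to the start is printed in a stretch of 30 bases, read 5' to 3' on the strand of the gene, with the E2F letters of that match in capitals.
Mcm5, chr8:75109347-75109376, plus strand: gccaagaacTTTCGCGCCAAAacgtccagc
Mcm6, chr1:128359734-128359763, minus strand: gattggacgggTTTGGCGCgaagtagctca
Mcm7, chr5:138171849-138171878, minus strand: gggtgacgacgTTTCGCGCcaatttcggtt
Cdc6, chr11:98908002-98908031, plus strand: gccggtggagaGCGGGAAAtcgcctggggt
Pola1, chrX:93632275-93632304, minus strand: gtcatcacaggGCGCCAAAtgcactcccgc
Clspn, chr4:126556990-126557019, plus strand: accgcgtctggGCGCGAAAgctcgaacttc
Uhrf1, chr17:56304117-56304146, plus strand: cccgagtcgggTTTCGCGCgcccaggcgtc
Hells, chr19:38930917-38930946, plus strand: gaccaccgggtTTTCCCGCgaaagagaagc
Cdca7, chr2:72476137-72476166, plus strand: tgcgtcccggcGCGGGAAAgccggtggccc
Dtl, chr1:191575534-191575563, minus strand: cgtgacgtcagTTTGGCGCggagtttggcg
Matches on the other strand read as the reverse complement, as in Cdc6 and Cdca7. In Mcm5 the capitals cover overlapping matches on both strands. A match is a description of the sequence, not a measured binding site.

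Longer stretches, which end before an annotated exon, are given for 3 members on which the results turn: Mcm6 and Cdca7, which were lower in the KO library, and Fen1, which was higher. The Fen1 stretch precedes the more upstream of its RefSeq starts and lies within Tmem258, a gene on the opposite strand.
Mcm6, chr1:128359706-128359955, minus strand: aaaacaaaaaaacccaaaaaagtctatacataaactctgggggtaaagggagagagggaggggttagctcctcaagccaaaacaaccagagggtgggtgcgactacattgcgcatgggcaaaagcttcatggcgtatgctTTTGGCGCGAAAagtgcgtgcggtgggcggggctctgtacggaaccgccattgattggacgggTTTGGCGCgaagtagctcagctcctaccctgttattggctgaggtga
Cdca7, chr2:72475969-72476158, plus strand: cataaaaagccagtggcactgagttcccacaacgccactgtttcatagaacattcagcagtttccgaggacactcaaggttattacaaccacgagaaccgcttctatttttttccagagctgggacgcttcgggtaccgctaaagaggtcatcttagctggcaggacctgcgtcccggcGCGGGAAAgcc
Fen1, chr19:10204394-10204643, minus strand: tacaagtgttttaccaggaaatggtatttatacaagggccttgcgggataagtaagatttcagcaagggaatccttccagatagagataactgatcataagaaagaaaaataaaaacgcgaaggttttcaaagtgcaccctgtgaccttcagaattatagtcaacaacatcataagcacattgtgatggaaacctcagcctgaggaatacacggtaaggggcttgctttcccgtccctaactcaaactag
The Mcm6 window held 3 matches, the Cdca7 stretch holds 1 and neither Fen1 window held any of the 4 motifs, which says only that these letters were not there. Of the 9 members that were lower over all cells, 7 had a promoter in the table and 5 of those held E2F letters. Of the 20 members called neither higher nor lower, 15 had a promoter and 5 held them.

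The WT library held 4210 cells with a median of 12094 UMIs (molecules counted by their tags), and the KO library 3653 cells with a median of 9119. CPM is the UMI count of a gene scaled to 1000000 UMIs of the cells summed. Mettl14 itself, checked first, stood at 10.5 CPM (632 UMIs) in WT and 5.34 CPM (201 UMIs) in KO cells, a log2 ratio of KO over WT of -0.97 (95% interval -1.21 to -0.74). These 3' tags check the label only if they lie in the deleted part. The authors' 7 clusters carry no names. By the marker lists, cluster 3 was cycling-like (8 of 8 cycling markers were highest there), clusters 1 and 2 goblet-like (5 and 4 of 9 markers), cluster 4 colonocyte-like (7 of 9) and cluster 5 enteroendocrine-like (8 of 8). Cluster 6, where 6 of 6 stromal and 4 of 4 detected tuft markers were highest, had 31 KO cells and was not compared. Cluster 0 stayed unnamed, since pancreatic enzyme genes lead it. In 33 WT and 0 KO cells of that cluster at least 1% of UMIs were of these enzymes, and enzyme UMIs also occurred elsewhere (742 in KO cells of cluster 0, 3606 in WT cells of cluster 1). Cluster 0 also held immune markers at a summed 222 CPM in KO and 50.6 CPM in WT cells, and stem cell markers at 960 and 1318 CPM.

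Over all cells the S phase genes as a group were lower in the KO library, with 1 exception of large size. Together they made up 1268 CPM in WT and 976 CPM in KO cells, a log2 ratio of -0.38 (-0.40 to -0.36), and -0.44 without Fen1. The sum of epithelial markers was also lower, at 5218 CPM in WT and 4034 CPM in KO cells (-0.37). Of these 5 markers, 4 had ratios below 0 and 1 above, with a median of -0.28. By cluster the epithelial and S phase sums differed in size, at -0.42 and -0.18 in cluster 3 and at -0.33 and -0.65 in cluster 1. The summed stromal (-2.48), tuft (-1.86), pancreatic enzyme (-3.52) and colonocyte markers (-0.82) were lower as well. Summed goblet (0.33) and immune markers (0.65) were higher, and stem (-0.01), cycling (-0.03) and enteroendocrine markers (-0.01) stood near their WT level. The goblet-like cluster 1 held 14.4% of WT and 20.7% of KO cells. The colonocyte list was split, with 5 of 9 ratios below 0, 4 above and a median of -0.06. The part of these markers in the result was not tested. A gene is called higher or lower here if the libraries differ by 1.5-fold or more and the interval of the ratio does not hold 0. All 30 members had the 50 UMIs required (712 to 9372 UMIs over both libraries). Of the 30, 9 were lower and 1 was higher. Among all 13334 genes measured this way, 16.2% were lower and 16.7% higher. The median log2 ratio of the members was -0.43, against -0.04 for all measured genes. A ratio below 0 was found for 24 of the 30. Of the 20 members that were not called, 15 had an interval wholly below 0, 2 had one wholly above 0, and 3 had one that holds 0. The nearest members on either side of the 1.5-fold limit were Mcm4 at 1.56-fold and Prim1 at 1.496-fold.

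**Figure D1:**
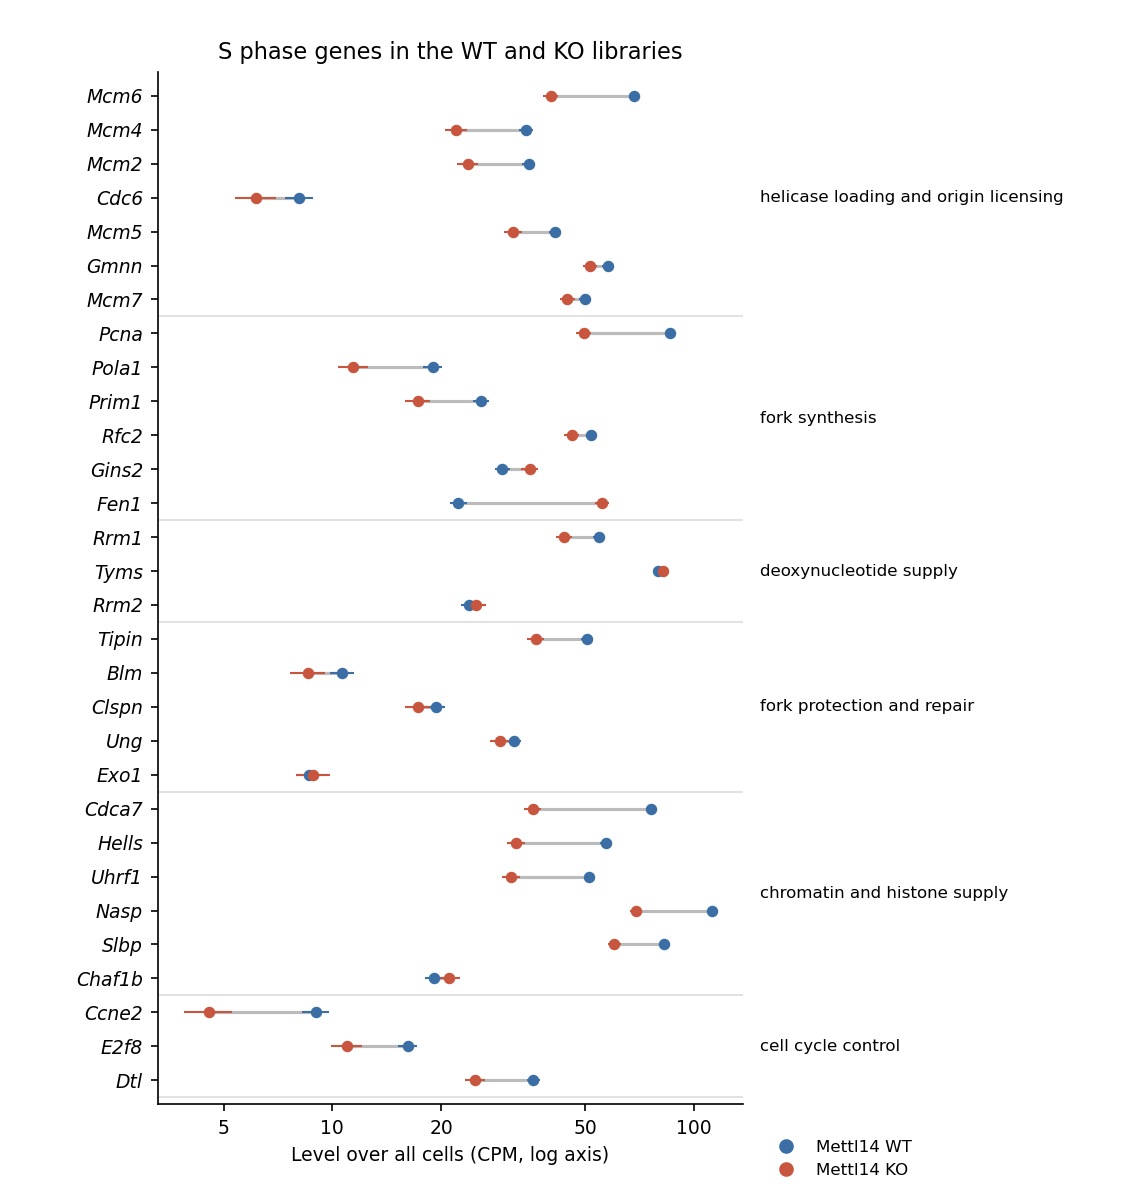
Level of each S phase gene in the WT and the KO library (CPM over all cells, log axis, 1 library per genotype, bars are exact Poisson 95% intervals), grouped by role. The KO point lies left of the WT point for 24 of 30 genes, and Fen1 lies furthest to the right of its WT point.

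Genes of chromatin assembly and histone supply were the role with the lowest ratio. Their 6 members summed to 399 CPM in WT and 250 CPM in KO cells (-0.68, -0.71 to -0.64), and 4 of the 6 were lower. Cdca7 (chromosome 2, 72476159 to 72486893, plus strand), which activates the remodelling factor HELLS, was the lowest of all 30 members. It stood at 76.3 CPM in WT and 35.8 CPM in KO cells, a 2.13-fold difference and a log2 ratio of -1.09 (-1.18 to -1.004). Hells (chromosome 19, 38930915 to 38971051, plus strand), which encodes that nucleosome remodeller, was at 57.0 against 32.2 CPM (-0.83, -0.92 to -0.73). Uhrf1, whose product binds newly copied, hemimethylated DNA and brings the maintenance methyltransferase there, was at 51.4 against 31.3 CPM (-0.72, -0.81 to -0.62). Nasp, a chaperone of histones H3 and H4, was at 112 against 69.2 CPM (-0.70, -0.77 to -0.63). Slbp, which binds histone mRNAs, was not called at 82.6 against 60.3 CPM (-0.45, -0.53 to -0.38). Chaf1b, a subunit of the assembly factor CAF-1, was at 19.1 against 21.0 CPM (0.13, 0.002 to 0.27). The role thus holds 4 genes well below their WT level beside a histone chaperone gene that was not.

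In the licensing role, 2 of 7 members were lower, and the sum was 294 CPM in WT and 220 CPM in KO cells (-0.42, -0.46 to -0.38). Its 5 Mcm genes encode subunits of the ring-shaped MCM helicase, and they did not share 1 ratio. Mcm6 (chromosome 1, 128331590 to 128359664, minus strand) was lower, at 68.1 against 40.1 CPM (-0.76, -0.85 to -0.68). Mcm4 was lower as well, at 34.3 against 22.03 CPM (-0.64, -0.76 to -0.52). Mcm2 at -0.56 (-0.68 to -0.45), Mcm5 (chromosome 8, 75109569 to 75128439, plus strand) at 41.3 against 31.5 CPM and -0.39 (-0.49 to -0.29), and Mcm7 at -0.16 (-0.25 to -0.07) were not called. The intervals of Mcm7 and Mcm6 lie apart. Cdc6, which loads the helicase onto origins, had few UMIs (487 and 231) and a ratio of -0.40 (-0.63 to -0.17). Gmnn, encoding geminin, which blocks a new round of loading within the same cycle, was at 57.7 against 51.6 CPM (-0.16, -0.24 to -0.08).

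Fork synthesis genes ran in both directions. Their sum was 234 CPM in WT and 215 CPM in KO cells (-0.12, -0.16 to -0.09). Pcna (chromosome 2, 132249162 to 132253314, minus strand), the sliding clamp that holds DNA polymerases on the template, was lower at 85.9 against 49.6 CPM (-0.79, -0.87 to -0.72). Pola1 (chromosome X, 93304767 to 93632155, minus strand), the catalytic subunit of the polymerase that starts each strand, was lower at 18.9 against 11.4 CPM (-0.73, -0.89 to -0.57). Its partner Prim1, the primase, was at 25.8 against 17.2 CPM (-0.58, -0.72 to -0.45). Rfc2, a subunit of the loader that places PCNA, was at 52.0 against 45.9 CPM (-0.18, -0.27 to -0.09). Gins2 (chromosome 8, 120578633 to 120589304, minus strand), a subunit of the GINS complex of the active helicase, was at 29.5 against 35.2 CPM, with a ratio of 0.25 (0.15 to 0.36). So the clamp and the starting polymerase were lower while a helicase cofactor was at or above its WT level.

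Fen1 (chromosome 19, 10199132 to 10204169, minus strand) was the 1 member higher in the KO library. It encodes the flap endonuclease that trims Okazaki fragments before they are joined. Its level was 22.3 CPM (1342 UMIs) in WT and 55.8 CPM (2099 UMIs) in KO cells, 2.50-fold higher, with a log2 ratio of 1.32 (1.22 to 1.42). It was higher in each of the 6 clusters compared. The gene overlaps Tmem258 on the opposite strand by 156 bases, and the antisense gene Gm10143 by 3253. Tmem258 had 13832 UMIs in WT and 6694 in KO cells, so it stood lower in the library where Fen1 stood higher. Gm10143 is not a row of the matrix. The Tmem258 overlap lies at the 5' end of Fen1, away from its 3' end, where the tags of a 3' library lie, and the Gm10143 overlap covers that 3' end. Whether the counting used the strand is not given in the sources used here, and the part of antisense reads was not tested.

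The genes of deoxynucleotide supply stood close to their WT level, with a sum of 158 CPM in WT and 151 CPM in KO cells (-0.07, -0.11 to -0.02). Tyms (chromosome 5, 30058202 to 30073617, minus strand), thymidylate synthase, was at 79.7 against 82.4 CPM (0.05, -0.02 to 0.11). Rrm2 (chromosome 12, 24708241 to 24714146, plus strand), the small subunit of ribonucleotide reductase that is made for S phase, was at 23.9 against 24.9 CPM (0.06, -0.06 to 0.18). Both intervals hold 0, but they cover only the error of counting and set no limit on a difference between genotypes. Rrm1, the large subunit, was at 54.6 against 43.7 CPM (-0.32, -0.41 to -0.23).

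No gene of fork protection and repair was called over all cells, and the role summed to 121 CPM in WT and 100.2 CPM in KO cells (-0.27, -0.33 to -0.22). Tipin, which steadies paused forks, was at -0.47 (-0.56 to -0.38), and Clspn, the claspin adaptor of the ATR checkpoint, at -0.17 (-0.31 to -0.03). Blm, a helicase that resolves recombination intermediates, was at -0.32 (-0.51 to -0.12). Ung, which removes uracil from DNA, was at -0.13 (-0.24 to -0.02), and Exo1, a DNA exonuclease, at 0.03 (-0.17 to 0.24).

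The 3 control genes summed to 61.1 CPM in WT and 40.3 CPM in KO cells (-0.60, -0.69 to -0.51). Ccne2 (chromosome 4, 11191351 to 11204779, plus strand), the cyclin E2 that drives entry into S phase, was lower at 8.99 against 4.54 CPM (-0.98, -1.24 to -0.73). Dtl, which directs the destruction of licensing factors during S phase, was at 35.99 against 24.8 CPM (-0.54, -0.65 to -0.43), and E2f8, an E2F repressor made late in S phase, at 16.1 against 10.9 CPM (-0.56, -0.73 to -0.39).

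Some members have neighbours or copies that can share reads. Besides Fen1, Mcm7 overlaps Cops6 and Ap4m1, Gins2 overlaps Gse1, Rfc2 overlaps Lat2 and Ccne2 overlaps Ints8, each on the opposite strand. Ccne2 and Ints8 share 5622 bases, and Ints8 had 802 WT and 345 KO UMIs, so it was lower in the same library as Ccne2. The part of shared reads was not tested. Pcna, Tyms and Nasp have annotated pseudogenes (Pcna-ps1 and Pcna-ps2, Tyms-ps, Nasp-ps1), so their counts are uncertain to that extent.

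The cells of cluster 3 carried the most S phase RNA. Their summed level was 1885 CPM in WT and 1661 CPM in KO cells, and 23 of the 30 members had their highest level there. The cluster held 41.5% of the members' UMIs in WT and 46.1% in KO cells, against 27.9% and 27.1% of all UMIs. Cluster 0 came next, with 1516 CPM in WT and 1071 CPM in KO cells, and Mcm2, Mcm4, Mcm6, Ung, Cdca7 and Dtl were highest there. Tipin was highest in cluster 6. Because the authors formed the clusters from these same counts, levels between clusters are a description.

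**Figure D2:**
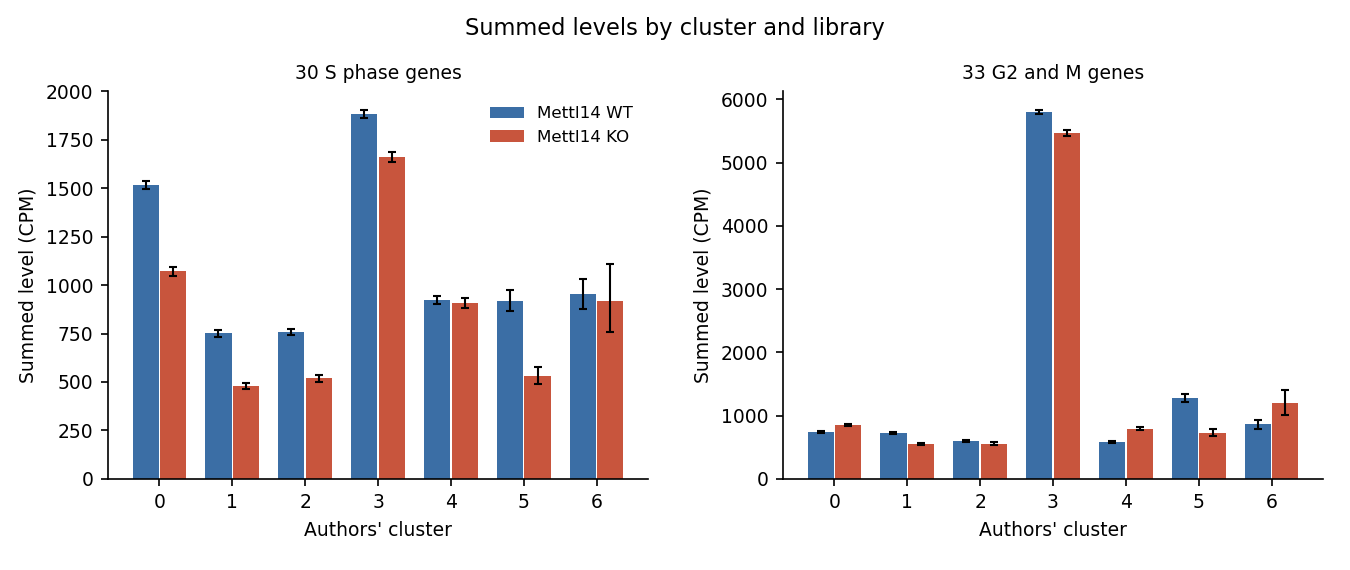
Summed level of the 30 S phase genes (left) and of 33 G2 and M genes (right), in CPM with exact Poisson 95% intervals, in each of the authors' clusters, 1 library per genotype. For S phase genes clusters 3 and 0 are highest, the KO level is below the WT level in clusters 0, 1, 2, 3 and 5, and the levels in cluster 4 are 924 and 907 CPM.

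Within cluster 3 the S phase genes were closer to their WT level than over all cells. The summed ratio was -0.18 (-0.21 to -0.16) and -0.25 without Fen1, and the median ratio was -0.32, against 0.03 for all 12299 genes measured there. Of the 30 members 5 were lower and 1 was higher, where 12.1% of all measured genes were lower and 17.6% higher. The 5 were Cdca7 (91.5 against 47.8 CPM, -0.94, -1.09 to -0.79), Ccne2 (12.8 against 6.67 CPM, -0.94, -1.35 to -0.54), Pcna (125 against 75.6 CPM, -0.72, -0.85 to -0.60), Hells (82.8 against 52.6 CPM, -0.65, -0.80 to -0.51) and Pola1 (33.1 against 21.2 CPM, -0.64, -0.88 to -0.41). These are the clamp, the starting polymerase, the Cdca7 and Hells pair and cyclin E2. Which members are called depends on the limit, since Uhrf1 (1.496-fold) and Mcm6 (1.485-fold) were lower but just missed it. A count of 5 in 30 lies near the 12.1% among all measured genes, so it is not read as a trait of the members. Fen1 was at 39.2 against 112 CPM (1.51, 1.37 to 1.65). Gins2 (46.7 against 67.1 CPM, 0.52, 0.37 to 0.67) and Chaf1b (29.5 against 38.1 CPM, 0.37, 0.17 to 0.56) stood above their WT level without reaching 1.5-fold. Mcm6 was at -0.57 (-0.71 to -0.43), Mcm5 at -0.20 (-0.36 to -0.05), Tyms at 0.16 (0.06 to 0.25) and Rrm2 at 0.16 (0.01 to 0.31). By role, the sums in cluster 3 were -0.49 for chromatin and histone supply, -0.47 for control, -0.20 for licensing, -0.12 for protection and repair, 0.03 for deoxynucleotide supply and 0.08 for fork synthesis.

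In cluster 0 the summed ratio was -0.50 (-0.54 to -0.46), and the median was -0.48. There 13 members were lower and 1 was higher. The shares among all genes measured there were 13.2% lower and 20.1% higher. Cdca7 (115 against 51.0 CPM, -1.17), Hells (75.0 against 43.0 CPM, -0.80), Mcm6 (99.4 against 57.5 CPM, -0.79) and Pcna (89.1 against 51.6 CPM, -0.79) were among the lower ones, and Fen1 was at 21.2 against 46.3 CPM (1.13). Tyms (-0.01, -0.17 to 0.15) and Rrm2 (-0.02, -0.37 to 0.32) had intervals that hold 0. This cluster is mixed, and its value moved with the cells kept. Without the 33 enzyme-rich cells the summed ratio was -0.53, with 14 members lower. Without cells that held at least 3 UMIs of immune markers, which left 1052 WT and 648 KO cells, it was -0.31 (-0.35 to -0.27), with 8 members lower. One of these markers, Cd74, can also be made by epithelial cells. In cluster 3 the same step left the ratio at -0.18 and 5 members lower.

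The goblet-like clusters had the most members called. In cluster 1 the sum was 751 CPM in WT and 479 CPM in KO cells (-0.65, -0.71 to -0.59), with 16 members lower and 1 higher, where 17.1% of all measured genes were lower and 13.4% higher. In cluster 2 it was 758 and 518 CPM (-0.55, -0.61 to -0.49), with 18 lower and 1 higher, against 16.4% and 14.6%. The medians were -0.74 and -0.80. Hells was at 33.6 against 13.1 CPM in cluster 1 (-1.36, -1.69 to -1.04) and at 31.3 against 12.2 CPM in cluster 2 (-1.36, -1.76 to -0.98). Pcna was at 59.9 against 30.5 CPM (-0.97) and 55.7 against 27.1 CPM (-1.04). Mcm5 was at -0.71 and -0.86, and Rrm2 at -0.04 (-0.50 to 0.42) and -0.62 (-1.17 to -0.09). Clspn had 105 WT and 13 KO UMIs in cluster 2 (-2.17, -3.12 to -1.33) and a ratio of -1.26 (-1.89 to -0.66) in cluster 1, while in cluster 3 it was at 0.08 (-0.09 to 0.26). Clspn was named after its values were seen. Fen1 was higher in both, at 0.85 and 1.39. Other markers moved with these clusters. Summed colonocyte markers were at 777 CPM in WT and 209 CPM in KO cells of cluster 1 (-1.89) and at 1396 and 282 CPM in cluster 2 (-2.31). Of the colonocyte markers measured, 3 had ratios below 0 and 3 above in cluster 1, and 3 and 2 in cluster 2. In WT cells the colonocyte sum in cluster 2 was above that of the colonocyte-like cluster 4 (999.8 CPM). By single markers, as in the naming of the clusters, 7 of the 9 were highest in cluster 4 and 1 in cluster 2. Immune markers in cluster 1 were at 49.0 and 94.6 CPM (0.95). The part of these differences in the S phase values was not tested.

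Enteroendocrine-like cells were few, with 99 WT and 151 KO cells, and 25 of the 30 members reached the 20 UMIs required in a cluster. The summed level was 920 CPM in WT and 533 CPM in KO cells (-0.79, -0.93 to -0.64), with 13 members lower and 1 higher and a median of -0.89, where 9.9% of all measured genes were lower and 12.8% higher. Mcm6 was at 51.3 against 16.7 CPM (-1.62, -2.44 to -0.87) and Cdca7 at 50.5 against 17.5 CPM (-1.53, -2.33 to -0.78). The intervals span more than 1 log2 unit here, so the size of a single ratio is poorly known.

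Colonocyte-like cells of cluster 4 differed from this pattern. The sum was 924 CPM in WT and 907 CPM in KO cells (-0.03, -0.08 to 0.03), a difference that could not be told from 0 at this depth. Without Fen1 it was -0.07 (-0.12 to -0.01), an interval just below 0. The median ratio was 0.10. Only Cdca7 was lower there (72.2 against 45.7 CPM, -0.66, -0.88 to -0.44), and Fen1 (13.9 against 38.4 CPM, 1.47, 1.15 to 1.80) and Rrm2 (9.18 against 15.6 CPM, 0.76, 0.30 to 1.22) were higher, where 13% of all measured genes were lower and 15.7% higher. Gins2 was at 0.58 (0.27 to 0.89), Chaf1b at 0.39 (0.001 to 0.78), Tyms at 0.33 (0.13 to 0.54), Mcm5 at 0.18 (-0.10 to 0.46), Mcm6 at -0.38 (-0.61 to -0.15), Hells at -0.25 (-0.52 to 0.01) and Pcna at -0.40 (-0.61 to -0.20). The difference between cluster 4 and the other clusters was not tested, since each cluster has 1 library on either side.

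**Figure D3:**
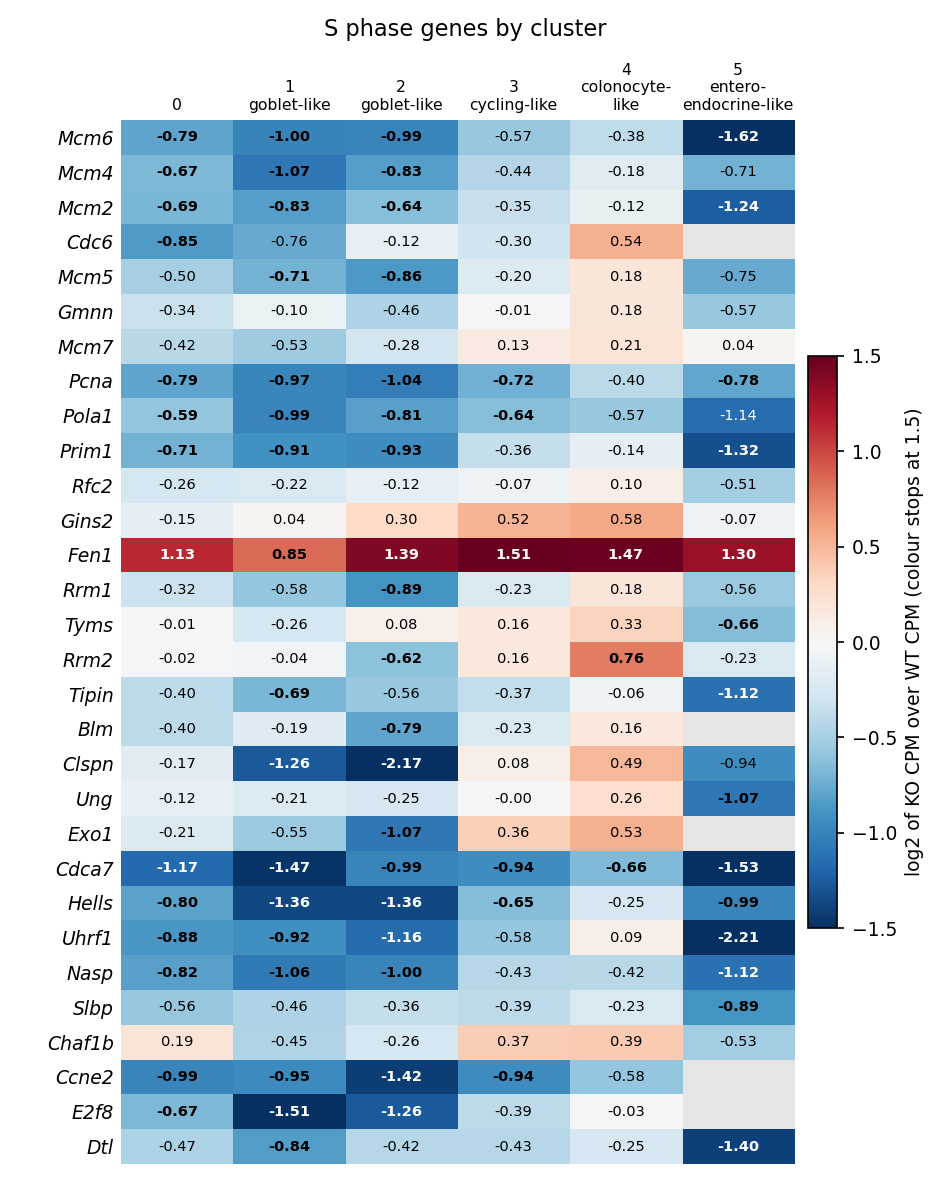
Log2 ratio of KO over WT CPM for each S phase gene (rows, by role) in clusters 0 to 5 (columns), 1 library per genotype. Bold values are called higher or lower and grey cells have too few UMIs. Fen1 is above 0 and Cdca7 below 0 in every column, and the column of cluster 4 is the nearest to 0.

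Across the 6 clusters Cdca7 was lower in 6 and Fen1 higher in 6. Hells and Pcna were lower in 5 clusters, and 7 members, Ccne2 and Mcm6 among them, in 4. Chaf1b, Gins2, Gmnn, Mcm7 and Rfc2 were called in none, and these 5 had ratios between -0.57 and 0.58. The ratio over all cells therefore stands for different sizes in different clusters.

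Counted by cells, fewer KO than WT cells held S phase RNA. Each cell was thinned to 3000 UMIs because the KO cells were shallower, which left out 172 WT and 97 KO cells. After that at least 5 UMIs of the members were held by 27.4% of WT cells (26.0 to 28.8) and by 21.8% of KO cells (20.4 to 23.2). Without thinning the shares were 61.9% and 50.5%. In cluster 3 the thinned shares were 46.8% (43.5 to 50.1) in WT and 44.2% (40.9 to 47.6) in KO cells, intervals that overlap. In cluster 0 they were 37.5% (34.5 to 40.5) and 25.9% (22.9 to 29.1), in cluster 1 12.03% and 5.48%, in cluster 2 13.5% and 7.91%, and in cluster 5 12.4% and 2.01%. Cluster 4 had 16.1% (13.4 to 19.2) in WT and 20.4% (16.9 to 24.3) in KO cells. Many cells lie near this limit: in cluster 3, 138 WT and 160 KO cells were within 1 UMI of it. No cluster compared was free of cycling RNA: in WT cells of cluster 5, the enteroendocrine-like one, G2 and M genes summed to 1272 CPM, above clusters 0, 1, 2 and 4. No class could therefore give the share that free RNA alone would produce. The unthinned median depths of cluster 5 were 7897 and 5492 UMIs, and those of cluster 3 were 16113 and 10167.

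**Figure D4:**
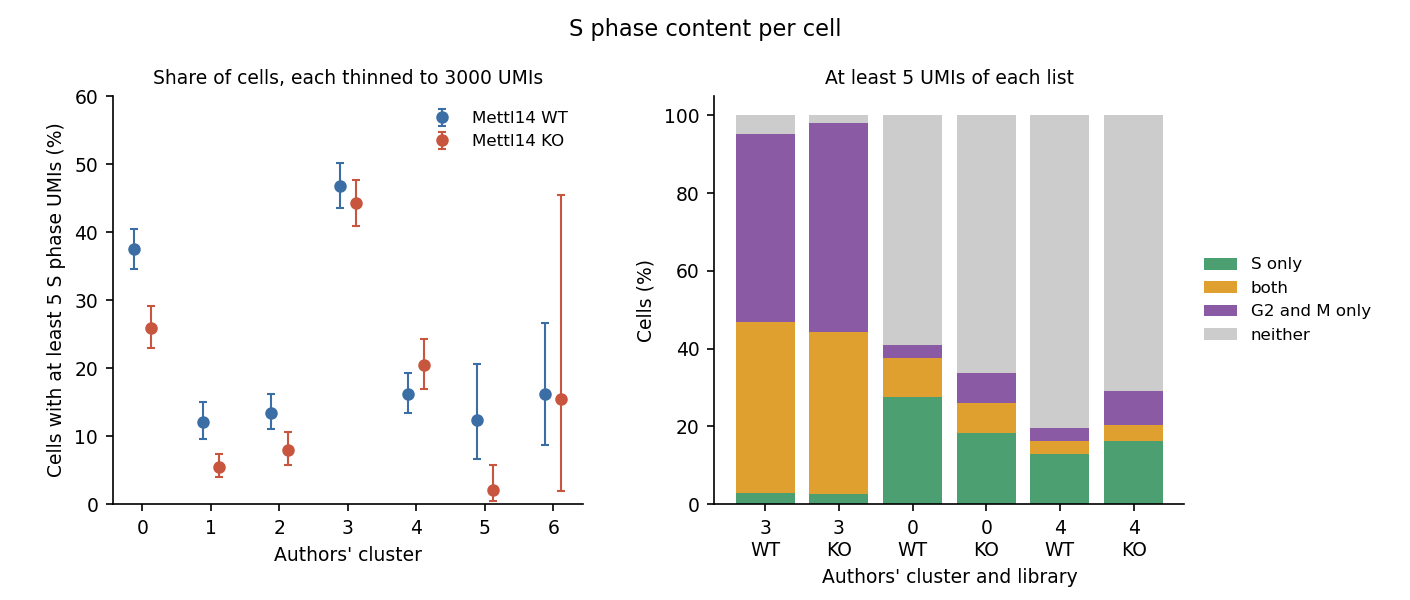
Share of cells with at least 5 S phase UMIs after thinning to 3000 UMIs (percent, exact Clopper-Pearson 95% intervals, 1 library per genotype) by cluster. On the left the KO share is below the WT share with separate intervals in clusters 0, 1, 2 and 5, and in clusters 3 and 4 the intervals overlap. On the right the bars divide the thinned cells of clusters 3, 0 and 4 by whether they hold at least 5 UMIs of the S phase list, of the G2 and M list, of both or of neither.

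Fen1, Cdca7 and Pcna kept their directions in thinned cells. A Fen1 UMI was found in 5.20% of WT and 14.2% of KO cells, in 11.1% and 28.3% of cluster 3, and in 3.09% and 7.38% of the enteroendocrine-like cells. A Cdca7 UMI was found in 18.0% of WT and 10.4% of KO cells, with 8.25% and 3.36% in enteroendocrine-like cells. For Pcna the shares were 17.9% and 12.9%, with 10.3% and 9.396% in enteroendocrine-like cells. The enteroendocrine-like shares rest on 97 WT and 149 KO cells and are given without intervals, so the directions there are poorly known. The shares for Clspn (4.26% and 4.30%) and Blm (2.28% and 2.31%) stood at like levels in both libraries, while their ratios over all cells were -0.17 and -0.32.

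Genes of G2 and M phase were set beside the members. This list of 33 genes summed to 2115 CPM in WT and 1979 CPM in KO cells, with 4 lower, 2 higher and a median ratio of -0.22. Neither count exceeded the share among all measured genes, 16.2% lower and 16.7% higher. Mki67, a proliferation marker, stood at 117 CPM in WT and 182 CPM in KO cells (0.63, 0.58 to 0.68) and was called higher. So was Birc5 (0.68), which encodes survivin of the chromosomal passenger complex, and Nusap1, a spindle gene, was lower (-0.9997). In cluster 3 the G2 and M genes summed to 5799 CPM in WT and 5466 CPM in KO cells. In cluster 0 they were at 745 and 849 CPM and in cluster 4 at 587 and 792 CPM, both above the WT level, while the S phase sum was below it in cluster 0 and near it in cluster 4. In cluster 1 they were at 723 and 555 CPM (-0.38, -0.44 to -0.33), with 13 of 33 lower, 0 higher and a median of -0.58. Among all genes measured in cluster 1, 17.1% were lower and 13.4% higher. In cluster 2 the G2 and M genes were at 591 and 556 CPM (-0.09, -0.15 to -0.02). In cluster 5 they were at 1272 and 731 CPM. The S phase sum was thus below its WT level together with the G2 and M sum in clusters 1, 2, 3 and 5, and without it in cluster 0.

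Cells of cluster 3 were then divided by content after thinning. The share with at least 5 UMIs of G2 and M genes but fewer than 5 of S phase genes was 48.4% (45.1 to 51.8) in WT and 53.9% (50.6 to 57.3) in KO cells. The share at or above the limit for both was 43.9% and 41.7%, and for S phase genes only 2.89% and 2.51%. In cluster 0 the cells with S phase content only made up 27.6% (24.9 to 30.4) of WT and 18.4% (15.7 to 21.3) of KO cells, and those with G2 and M content only 3.32% and 7.66%. Among the cells of cluster 3 with G2 and M content (831 WT and 839 KO) the members summed to 1903 against 1634 CPM (-0.22, -0.25 to -0.19). In the 69 WT and 38 KO cells below that limit the sum was 1711 against 2205 CPM (0.37, 0.26 to 0.47). These classes are ranges of a count per cell, not cell types or measured phases of the cycle, and free RNA enters them.

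The libraries also differed in the shares of cells in which RNA that marks sex was found. Cells with Xist RNA (3 UMIs or more) and no UMI of the 4 Y-linked genes made up 40.1% of WT and 46.4% of KO cells, and those with Y-linked but no Xist UMIs 36.6% and 27.3%. Cells holding both kinds, 10.4% and 8.32%, were set aside. The remaining cells, with no Y-linked UMI and fewer than 3 Xist UMIs, entered neither class. Finding these UMIs depends on depth, which was lower in KO cells (median 9119 UMIs, against 12094 in WT). The part of depth in these shares was not tested. Among the Xist cells 12 members were lower and 1 higher (median -0.55), where 15.5% of all measured genes were lower and 16.9% higher. Among the Y-linked cells 5 were lower and 1 higher (median -0.20), where 13.2% were lower and 14.6% higher. Ccne2 was at -1.45 (-1.85 to -1.07) in the former and -0.16 (-0.64 to 0.29) in the latter. Rrm2 was at -0.01 (-0.18 to 0.17) and 0.43 (0.21 to 0.65), and Mcm5 at -0.56 (-0.71 to -0.41) and -0.12 (-0.31 to 0.07). Cdca7 (-1.19 and -0.90) and Fen1 (1.15 and 1.54) were called in both. In cluster 3 the summed ratio was -0.21 (-0.25 to -0.17) in Xist cells and -0.04 (-0.09 to 0.01) in Y-linked cells, and in cluster 0 -0.67 and -0.21. Sex and animal cannot be told apart within a library.

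Other genes of replication and of the G1 to S step, 62 that are not members, had a like median. All 62 were measured, and 15 were lower and 2 higher, where 16.2% of all measured genes were lower and 16.7% higher. The median ratio was -0.36, against -0.43 for the members. Among the lowest were Rpa3, a subunit of the protein that coats single-stranded DNA (95.3 against 44.6 CPM, -1.10, -1.17 to -1.02), the kinase gene Cdk2 (-0.80) and Rbl1, which encodes the retinoblastoma relative p107 (-0.80). The highest were Tk1, thymidine kinase (43.6 against 86.8 CPM, 0.99, 0.92 to 1.07), and Dbf4, the activator of the kinase that fires origins (30.7 against 58.0 CPM, 0.92, 0.83 to 1.007). The polymerase subunit gene Pold3 (0.52) and Fbxo5 (0.46), an inhibitor of the anaphase-promoting complex, came next and were not called. In cluster 3, 7 of the 62 were lower and 7 higher, counts no higher than the 12.1% and 17.6% among all genes measured there, and the median ratio was -0.19. Tk1 there was at 101 against 211 CPM (1.06, 0.97 to 1.16) and Dbf4 at 70.7 against 140 CPM (0.99, 0.88 to 1.102). Fen1 among the members and Tk1 and Dbf4 outside them thus stood above their WT level in lists whose medians lay below 0.

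Of 8 genes that restrain the cycle, 7 were measured, and 3 were higher and 1 lower. Among all genes measured over all cells, 16.7% were higher and 16.2% lower. Cdkn1a, the p53 target that encodes the CDK inhibitor p21, was at 48.7 against 131 CPM (1.42, 1.36 to 1.49), and in cluster 3 at 24.8 against 90.7 CPM (1.87, 1.70 to 2.04). Ccng1, another p53 target (0.92), and the CDK inhibitor gene Cdkn2b (0.68) were higher, and Cdkn2c, which encodes the CDK inhibitor p18, was lower (-1.19). Of 6 genes that drive G1, Ccnd2, encoding cyclin D2, was higher at 275 against 565 CPM (1.04, 1.012 to 1.07). Myc (-1.11) and Cdk6 (-0.81) were lower, and Ccnd1, encoding cyclin D1, was at 172 against 136 CPM (-0.34, -0.39 to -0.29). Restraining and driving genes thus both had members on either side. Both lists are too short for their counts to be read against the shares among all measured genes.

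**Figure D5:**
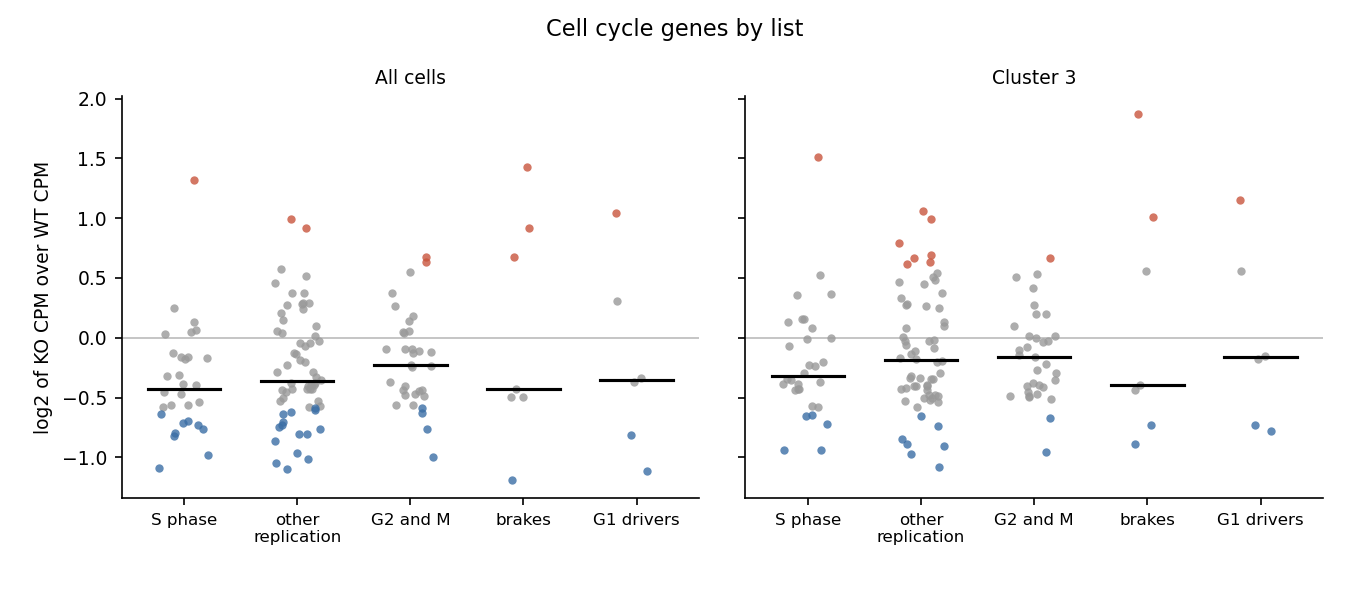
Log2 ratio of KO over WT CPM over all cells (left) and in cluster 3 (right) for each measured gene (points, red higher, blue lower, grey neither, 1 library per genotype) of the S phase, other replication, G2 and M, brake and G1 driver lists, with the median of each list as a line. The medians over all cells are -0.43, -0.36, -0.22, -0.43 and -0.36, and each list holds genes on both sides of 0.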

How the data were processed

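The deposited values are UMI counts for each gene in each cell, with a table of each cell's library and cluster. Cell Ranger, bcl2fastq and mm10 were used, per the submitters' processing notes. The cell filter, clustering method and use of strand are not given in the sources used here. The libraries shared 2 barcodes, and no doublets were removed.

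Counts were summed per library or cluster and scaled to CPM. Intervals are exact: conditional binomial for ratios, Poisson for levels, Clopper-Pearson for shares. Genes needed 50 UMIs over both libraries, or 20 within a cluster, and clusters 50 cells in each library. The calculation was checked on simulated data. Positions come from GENCODE vM21 (GRCm38), counted from 1, and promoters from RefSeq (GRCm38.p6). The members and lists were chosen with earlier results of these data known. Every member is named. Values per cluster are given for the 5 highest and 5 lowest by the interval bound nearest to 0, for those called in cluster 3 and for Pcna, Mcm5 and Rrm2. From other lists up to 4 genes each way were named, plus Mki67, Ccnd1 and Cdkn1a. Some genes that met this rule are not reported here. Another 18 settings were tried, and 2 more were chosen after seeing the data, as were the subsets of clusters 0 and 3. Of the 18, the one with no minimum of UMIs could not change a value of the members, which all had the UMIs required. Python 3.11.15, numpy 2.4.6, scipy 1.17.1, pandas 2.3.3, matplotlib 3.10.9, R 4.3.3 and edgeR 4.0.16 (TMM factors only) were used.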

Additional observations from a re-analysis of the deposited data

Results flagged for a closer look

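Rrm2, the small subunit of ribonucleotide reductase, lay on opposite sides of equal levels in 2 clusters: its log2 ratio of KO over WT was 0.76 in the colonocyte-like cluster 4, where it was called higher, and -0.62 in the goblet-like cluster 2, where it was called lower. The difference between the clusters was not tested, since each has 1 library of each genotype.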

How the results depend on the processing

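Under the settings tried, no summed ratio changed sign, and neither did a called member among those followed. Counts of members called have no direction, so they could only grow or shrink. The cells of cluster 3 below the G2 and M limit, with a summed ratio of 0.37, were not among these settings. No paired analysis was possible because each genotype has 1 library. The summed ratio over all cells (-0.38) was -0.34 with TMM, with median-of-ratios scaling and without cells holding both Xist and Y-linked UMIs, -0.45 without mitochondrial, ribosomal protein and haemoglobin genes, -0.28 in cells of at most 10% mitochondrial UMIs, -0.27 by the mean of per-cell CPM, -0.29 after thinning to 3000 UMIs, -0.51 without cluster 3 and -0.44 without Fen1. It was -0.47 in Xist cells, -0.18 in Y-linked cells and -0.45 with equal weight for 6 clusters, where the median (-0.43) was -0.55, -0.20 and -0.57. The median was -0.32 by the mean of per-cell CPM. The 9 lower members became 5 in Y-linked cells, 15 with equal weight for 6 clusters and 1 at a 2-fold threshold, and 1 was higher in each alternative. In cluster 3 the summed ratio (-0.18) was -0.22 with TMM, -0.23 with median of ratios, -0.26 without mitochondrial, ribosomal protein and haemoglobin genes, -0.15 both in cells of at most 10% mitochondrial UMIs and by the mean of per-cell CPM, -0.21 in Xist cells, -0.040 in Y-linked cells and -0.25 without Fen1. Y-linked cells gave a median of -0.14 there with 3 members lower, and 3 were higher in cells of at most 10% mitochondrial UMIs. The cause of these shifts was not tested. The difference in the share of cells with S phase UMIs (-5.60 percentage points) ranged from -6.04 to -3.87 over 3 alternatives. Of 168 values of single members under alternatives, 158 kept their sign, and the others were values of Rrm2, Tyms and Chaf1b, which lie near 0. The 168 include values with no minimum of UMIs. That setting could not differ from the main one, because all members had the UMIs required. Gins2 was at 0.027 without cluster 3. Depth limits cluster 5 and Cdc6, Ccne2 and Exo1, the members with the fewest UMIs.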
